A study of Mus musculus with 8 samples.

Results

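The genes described here are 9 that make or sense prostaglandins: the 4 prostaglandin E2 receptors Ptger1, Ptger2, Ptger3 and Ptger4, the prostaglandin F receptor Ptgfr, the prostacyclin receptor Ptgir, the cyclooxygenases Ptgs1 and Ptgs2, and the prostaglandin E synthase Ptges. They were chosen by name, with earlier results of these data known. A value was taken from probe sets whose platform annotation names that gene alone. This gave values for 8 of the 9 genes, among 18193 genes in all. Ptgs1 had no such probe set and was not analysed here.

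RNA was measured in 3 groups of BALB/c samples from mouse small intestine at 6 to 9 days of age, with no treatment or genotype named in the labels. ICC-DMP cells gave 3 arrays, ICC-MY cells 3 and tunica muscularis 2, the last being whole muscle layers of the gut wall. ICC stands for interstitial cells of Cajal, which pace gut muscle and relay motor nerve signals to it, DMP for deep muscular plexus and MY for myenteric, the layers in which they lie. The labels print the abbreviations alone. The labels do not say how the cells were isolated or how many animals gave a sample. About 50 ng of RNA per sample went through 2 rounds of amplification.

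Prostaglandins are made from arachidonic acid, which phospholipases release from membranes, which cyclooxygenases convert to an unstable intermediate and which terminal synthases turn into the separate prostaglandins. Each prostaglandin acts on its own G protein-coupled receptors. The receptors encoded by Ptger2, Ptger4 and Ptgir raise cyclic AMP, that of Ptger3 mostly lowers it, and those of Ptger1 and Ptgfr mobilise calcium. In intestinal muscle, prostaglandins are known to change tone and the slow electrical rhythm that ICC generate.

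The labels were checked against markers. Kit, the receptor tyrosine kinase that defines ICC, averaged 11.09 ± 0.25 in ICC-DMP and 11.74 ± 0.83 in ICC-MY (SD, n = 3 each), against 7.82 ± 0.87 in tunica muscularis (n = 2), on the log2 scale of the deposited values that is used throughout. Of 10 ICC markers, Kit among them, 4 were higher in ICC-DMP than in tunica muscularis and 8 in ICC-MY (limma, adjusted p under 0.05). None was lower by that test. Of all genes, 3.72% and 4.05% were called higher in these comparisons. The marker lists were chosen with earlier results of these data known, so the counts are not an independent check of the labels. In ICC-DMP, Cacna1h (mean 4.93 against 5.72), Slc12a2 (10.12 against 10.39) and Prkcq (6.86 against 6.92) averaged below tunica muscularis. Smooth muscle markers were present in the ICC-DMP arrays: the mean level of 12 markers was at least 9.77 on every ICC-DMP array, 7.20 to 7.89 on ICC-MY arrays and 10.26 to 11.26 on tunica muscularis arrays. Mesothelial, enteric neuron and macrophage markers were low in both ICC classes, with mean levels no higher than 4.14, 4.03 and 4.11, against 8.70 to 8.97, 7.85 to 8.22 and 5.60 to 6.02 in tunica muscularis. The SD over probe sets was smaller on ICC-MY replicate 1 (1.98) and on tunica muscularis replicate 1 (2.06) than on the remaining arrays (2.22 to 2.31), which makes these the narrow-range arrays below. ICC-DMP replicate 3 and ICC-MY replicate 3 stood highest in the gap between the 3' and 5' actin control probe sets (4.66 and 4.28, against 2.53 to 3.53).

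Of the 8 measured genes, 5 differed between groups: Ptger2, Ptger3, Ptger4, Ptgir and Ptgs2 were each higher in ICC-DMP than in ICC-MY and lower in ICC-MY than in tunica muscularis. The DNA just upstream of 4 of them is shown because these genes moved together between the ICC classes. Each run is the 250 bases before the annotated start, 5′ to 3′ on the gene's own strand, from RefSeq on build GRCm38.p6 (the C57BL/6J reference, not the BALB/c strain studied). Capitals mark matches to a motif searched on both strands.
Ptger2, chr14:44987861-44988110, plus strand: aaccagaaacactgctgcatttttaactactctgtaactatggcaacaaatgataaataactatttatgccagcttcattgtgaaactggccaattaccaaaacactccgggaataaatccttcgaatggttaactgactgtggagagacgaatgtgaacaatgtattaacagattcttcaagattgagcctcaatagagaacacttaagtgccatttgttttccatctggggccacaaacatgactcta
Ptger4, chr15:5244188-5244437, minus strand: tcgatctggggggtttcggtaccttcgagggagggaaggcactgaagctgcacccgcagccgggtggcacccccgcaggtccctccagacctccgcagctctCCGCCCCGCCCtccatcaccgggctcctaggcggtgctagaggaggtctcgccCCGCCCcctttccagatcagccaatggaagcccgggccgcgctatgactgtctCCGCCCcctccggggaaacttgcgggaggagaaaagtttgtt
Ptgir, chr7:16906240-16906489, plus strand: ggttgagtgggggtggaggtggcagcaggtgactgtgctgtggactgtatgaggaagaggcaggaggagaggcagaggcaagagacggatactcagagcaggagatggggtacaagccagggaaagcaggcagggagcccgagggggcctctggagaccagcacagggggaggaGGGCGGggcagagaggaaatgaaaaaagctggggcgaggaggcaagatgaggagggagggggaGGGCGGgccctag
Ptgs2, chr1:150099781-150100030, plus strand: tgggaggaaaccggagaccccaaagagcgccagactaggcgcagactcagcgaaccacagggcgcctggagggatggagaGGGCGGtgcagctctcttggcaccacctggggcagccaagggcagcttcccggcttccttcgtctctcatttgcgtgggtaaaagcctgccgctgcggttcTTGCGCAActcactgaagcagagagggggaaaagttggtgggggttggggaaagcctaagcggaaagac

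The motifs were TATAAA (the TATA box), TGACG (the core of a cAMP response element), TGANTCA (AP-1), GGGCGG (the GC box), CACGTG (the E-box), CCGGAA (ETS factors) and TTGCGCAA (C/EBP factors, added after the Ptgs2 sequence was read). No matches to different motifs overlapped. The Ptger4 window held 4 GC boxes, 2 of which share a base, the Ptgir window 2 and the Ptgs2 window 1. The Ptger3 window held 3. The Ptger2 window held no GC box and matched none of the other letters searched; its bases were 38.0% G or C, against 66.8% for Ptger4. Over the 32851 upstream windows in the table, 32.7% held a GC box, 12.4% TATAAA, 17.8% TGACG, 6.75% TGANTCA, 6.02% CACGTG and 12% CCGGAA. The 1 match to TTGCGCAA lay 69 to 62 bases before the Ptgs2 start, and 0.164% of all windows held this motif. Each match is a description of letters, and no binding was measured.

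The study set each ICC class against tunica muscularis and the classes against each other. Ptger2, Ptger3, Ptger4, Ptgir and Ptgs2 were higher in ICC-DMP than in ICC-MY, by 3.32-fold to 9.43-fold. These are 5 of the 8 measured genes, where 5.36% of all 18193 genes were called higher in ICC-DMP and 8.67% in either direction. The arrays did not overlap, with every ICC-DMP array above every ICC-MY array, for 6 of the 8, against 13.9% of all genes (25.6% did not overlap in either direction). The median log2 difference of the 8 was 2.02, beside -0.02 over all genes. Against tunica muscularis, these 5 genes were lower in ICC-MY, by 1.93-fold to 14-fold, where 9.78% of all genes were called lower and 13.8% either way. For 7 of the 8 every ICC-MY array lay below both tissue arrays, against 20.7% of all genes. For 1, Ptger1, every ICC-MY array lay above both, against 13.4% of all genes (34.2% did not overlap in either direction). The median difference of the 8 was -1.43, beside -0.02 over all genes. In ICC-DMP against tunica muscularis, Ptgir was higher and Ptger4 lower, where 3.72% and 7.32% of all genes were called in these directions and 11% in all. Every ICC-DMP array lay above both tissue arrays for 2 of the 8 and below them for 2, against 15.5% and 23.1% of all genes (38.5% together). The median difference of the 8 was 0.04, beside -0.04. These comparisons share arrays, so their counts are not independent of each other. The genes were chosen with earlier results of these data known, so the shares over all genes are a description and not a test of enrichment. In such bulk samples, fewer cells that carry a transcript and less of it per cell cannot be told apart.

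**Figure D1:**
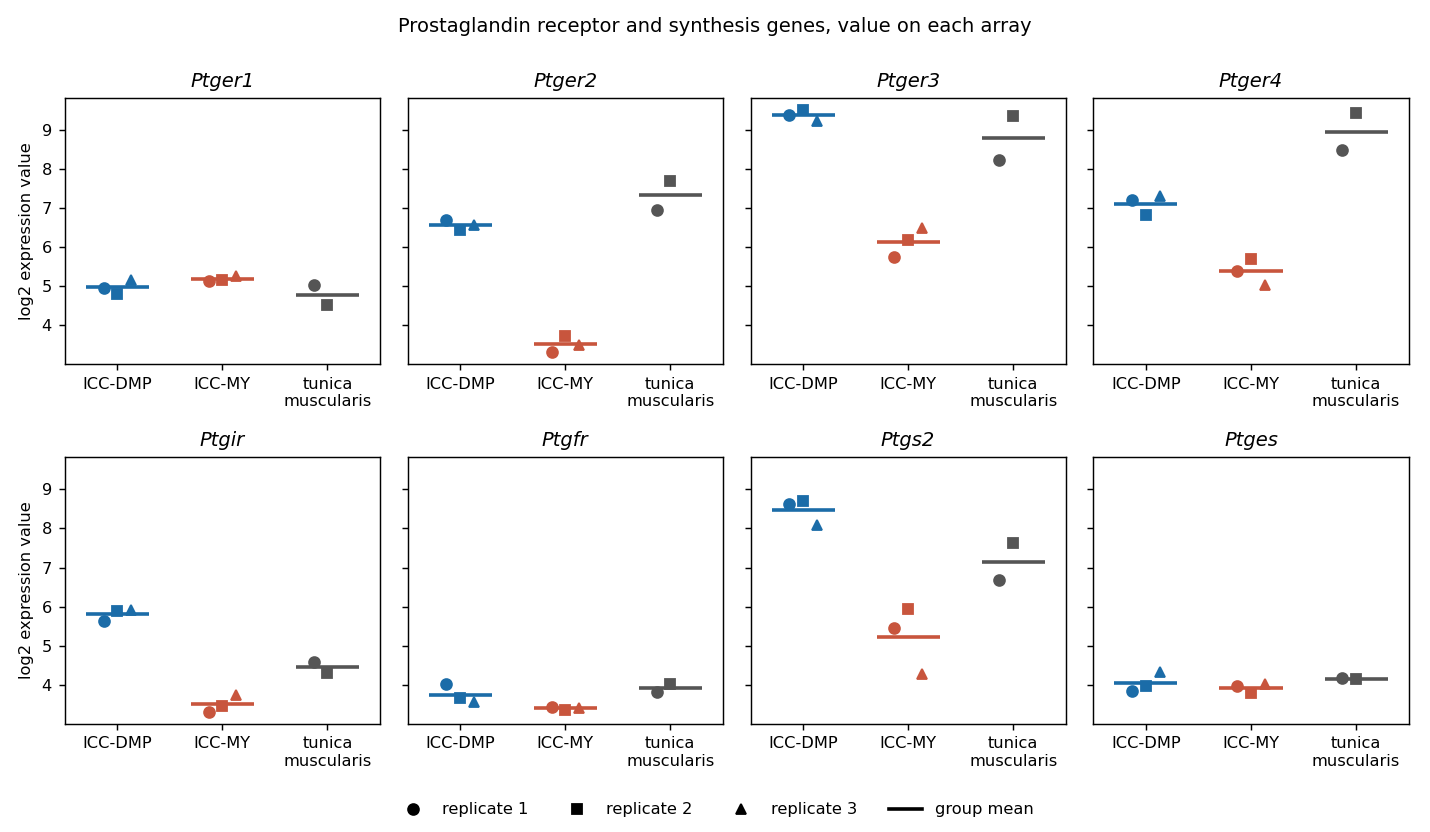
Log2 expression value (vertical axis) of the 8 measured prostaglandin genes on each of the 8 arrays, by group; points are arrays, symbols replicate numbers and bars group means. ICC-MY arrays are the lowest for Ptger2, Ptger3, Ptger4, Ptgir and Ptgs2, while Ptger1, Ptgfr and Ptges lie within a narrow band in every group.

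Ptger2 encodes the EP2 receptor, which relaxes smooth muscle through cyclic AMP. Its level was 6.68, 6.44 and 6.55 in ICC-DMP replicates 1, 2 and 3, then 3.32, 3.74 and 3.50 in ICC-MY, and 6.96 and 7.70 in tunica muscularis. The ICC-MY arrays stood far below all others, and the ICC-DMP arrays just below the tissue arrays. Ptger2 was 8.21-fold higher in ICC-DMP than in ICC-MY (log2 difference 3.04, SE 0.21, adjusted p = 8.67e-05). It was 14-fold lower in ICC-MY than in tunica muscularis (-3.81, SE 0.24, adjusted p = 2.54e-05). Between ICC-DMP and tunica muscularis the difference of -0.77 (SE 0.24) had an adjusted p of 0.0817. That difference passed when the replicate number was a random block (-0.77, adjusted p = 0.04). It also passed after quantile normalization of the arrays (-0.81, adjusted p = 0.0164) or after scaling them to equal spread (-0.87, adjusted p = 0.0488). Leaving out tunica muscularis replicate 1, alone or together with ICC-MY replicate 1, gave -1.14 (0.0174 and 0.00554 as adjusted p). The ICC-MY values of Ptger2 lay below 4.23, the median of all values, and whether they exceed background was not measured, so both folds against ICC-MY are between the deposited values only. The same holds for Ptgir and Cysltr2 in ICC-MY.

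Ptger3 encodes the EP3 receptor, whose splice forms mostly inhibit cyclic AMP formation. It read 9.38, 9.51 and 9.22 in ICC-DMP, against 5.73, 6.19 and 6.49 in ICC-MY, and 8.23 and 9.36 in tunica muscularis. The ICC-MY arrays were again the lowest, while the ICC-DMP range included the higher of the 2 tissue arrays. The difference between ICC-DMP and ICC-MY was 3.23 (SE 0.30, adjusted p = 0.000316), or 9.41-fold. ICC-MY was 6.31-fold below tunica muscularis (-2.66, SE 0.34, adjusted p = 0.00115). ICC-DMP and tunica muscularis differed by 0.58 (95% interval -0.20 to 1.36, adjusted p = 0.416), a value that rests on which tissue array is used, at 0.01 without tunica muscularis replicate 1 and 1.14 without replicate 2. A second probe set for Ptger3 lay between 2.55 and 2.90 on every array, and the mean of both probe sets gave smaller differences that still passed (1.59 between the ICC classes and -1.34 for ICC-MY against tissue).

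Ptger4 encodes the EP4 receptor, the other EP receptor that raises cyclic AMP. Its levels were 7.21, 6.82 and 7.31 in ICC-DMP, 5.39, 5.70 and 5.04 in ICC-MY, and 8.48 and 9.42 in tunica muscularis. The groups did not overlap, and tissue was the highest of the 3. ICC-DMP was 3.58-fold below tissue (-1.84, SE 0.31, adjusted p = 0.00652). ICC-MY was 11.9-fold below tissue (-3.57, SE 0.31, adjusted p = 0.000158). ICC-DMP lay 3.32-fold above ICC-MY (1.73, SE 0.28, adjusted p = 0.00564), a call lost without the 2 replicate 3 arrays of high actin 3' minus 5' difference (1.46, adjusted p = 0.0964). With the second probe set averaged in, which lay between 2.23 and 3.08 on every array, these differences became -1.12, -2.0 and 0.88, and all 3 passed.

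Ptger1, the calcium-mobilising EP1 receptor, lay between 4.51 and 5.26 on every array and passed in no comparison. Its mean was 4.97 ± 0.19 in ICC-DMP and 5.18 ± 0.07 in ICC-MY (SD, n = 3 each), and 4.77 ± 0.37 in tunica muscularis (n = 2). The 95% intervals of its differences ran from -0.61 to 0.19 for ICC-DMP minus ICC-MY, -0.25 to 0.65 for ICC-DMP minus tissue and -0.04 to 0.86 for ICC-MY minus tissue. A second Ptger1 probe set, at 2.60 to 3.50, also passed in no comparison.

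Ptgir encodes the IP receptor, through which prostacyclin relaxes smooth muscle. It read 5.64, 5.89 and 5.92 in ICC-DMP, 3.31, 3.47 and 3.73 in ICC-MY, and 4.59 and 4.31 in tunica muscularis. The 3 groups did not overlap, and tissue lay between the ICC classes. Ptgir was 2.58-fold higher in ICC-DMP than in tissue (1.36, SE 0.18, adjusted p = 0.00193). In ICC-MY it was 1.93-fold lower than in tissue (-0.95, SE 0.18, adjusted p = 0.0103). ICC-DMP exceeded ICC-MY 4.96-fold (2.31, SE 0.16, adjusted p = 9.29e-05), with 2.33, 2.42 and 2.18 within replicate numbers 1, 2 and 3. The ICC-MY difference from tissue missed the threshold without tunica muscularis replicate 1 (-0.80, adjusted p = 0.0633), without the 2 narrow-range arrays (-0.71, adjusted p = 0.0547) and when those 2 groups were fitted alone (adjusted p = 0.0524).

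Ptgfr, the receptor for the contractile prostaglandin F2 alpha, was at 3.57 to 4.03 in ICC-DMP, 3.35 to 3.43 in ICC-MY and 3.81 to 4.03 in tunica muscularis. Every ICC-MY array was below all arrays of the other groups, by small margins. The differences were 0.35 (SE 0.16, adjusted p = 0.282) for ICC-DMP minus ICC-MY, -0.17 (SE 0.18, adjusted p = 0.709) for ICC-DMP minus tissue and -0.52 (SE 0.18, adjusted p = 0.096) for ICC-MY minus tissue. Its other 4 probe sets, at 2.37 to 3.28, passed in no comparison. The ICC-MY difference from tissue passed under 2 alternatives: quantile normalization (-0.56, adjusted p = 0.0474) and a trended, robust estimate of the spread (-0.52, adjusted p = 0.0456). Ptgfr was among the 2 genes, with Ptges, whose main probe set had group means below the median of all values (4.23) in every group; the other 6 were above it in at least 1 group, as were 68.6% of all genes.

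**Figure D2:**
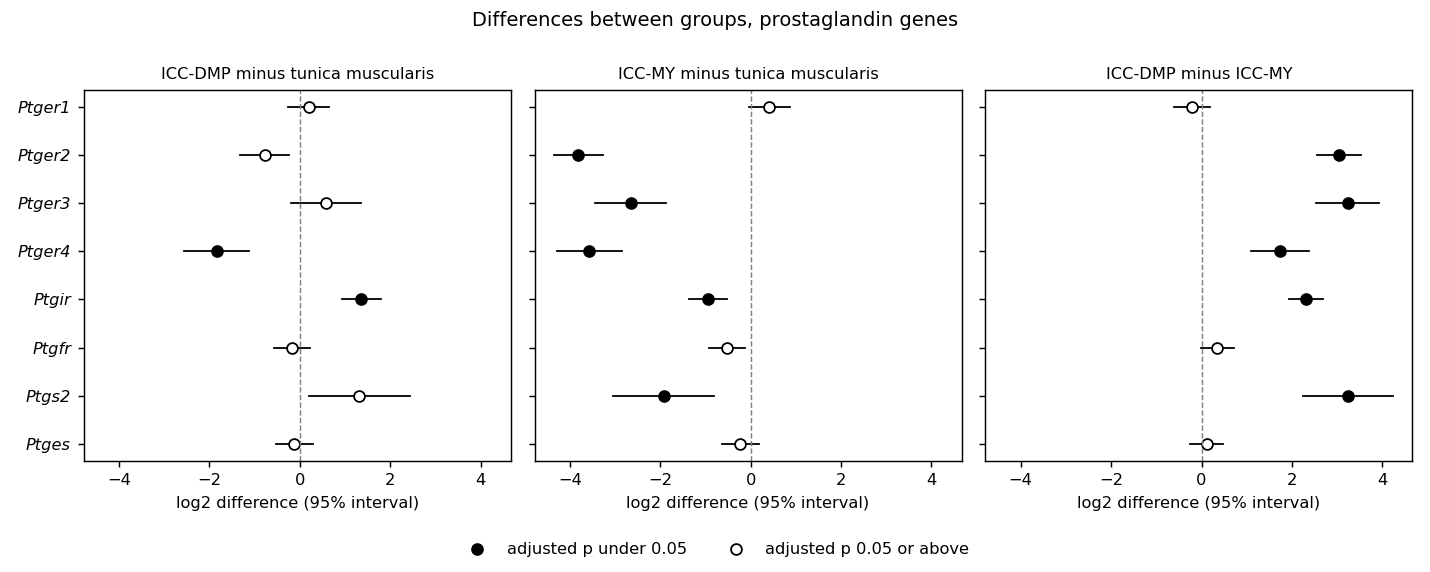
Log2 differences (horizontal axis) of the 8 measured genes in the 3 comparisons, with 95% intervals; filled points have an adjusted p under 0.05. Ptger2, Ptger3, Ptger4, Ptgir and Ptgs2 lie to the right of 0 for ICC-DMP minus ICC-MY and to the left for ICC-MY minus tunica muscularis, and Ptgir and Ptger4 are filled in all 3 panels.

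Among the synthesis genes, the level of Ptgs2, the inducible cyclooxygenase, was 8.62, 8.70 and 8.08 in ICC-DMP, 5.46, 5.95 and 4.28 in ICC-MY, and 6.67 and 7.63 in tunica muscularis. The groups did not overlap, although ICC-MY replicate 3 lay more than 1 unit below the other ICC-MY arrays. Ptgs2 was 9.43-fold higher in ICC-DMP than in ICC-MY (3.24, SE 0.44, adjusted p = 0.00215). It was 3.79-fold lower in ICC-MY than in tissue (-1.92, SE 0.49, adjusted p = 0.0336). The difference between ICC-DMP and tissue, 1.32 (SE 0.49), had an adjusted p of 0.148. That difference passed with the replicate number as a fixed block (1.65, adjusted p = 0.00325) and also as a random block. The ICC-MY call against tissue was lost without tunica muscularis replicate 2 (-1.44, adjusted p = 0.2), with ICC-DMP replicate 1 or 2 left out (0.0655 and 0.0611 as adjusted p) and without the 2 arrays of high actin 3' minus 5' difference (-1.45, adjusted p = 0.0638). It was also lost with array weights (-2.04, adjusted p = 0.0627), with the 2 groups fitted alone (adjusted p = 0.11) and with the mean of both Ptgs2 probe sets (-1.03, adjusted p = 0.0701), the second of which lay between 3.22 and 4.46. That mean gave 1.97 between the ICC classes, which passed (adjusted p = 0.00338).

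Ptgs2 is itself an immediate early gene, so a list of 20 others, which cells also switch on when they are dispersed, stands beside it. The mean level of that list ran from 10.53 to 10.73 in ICC-DMP, 8.66 to 9.50 in ICC-MY and 6.51 to 6.52 in tunica muscularis. Of the 20, the ICC-DMP level exceeded that of ICC-MY for 16 and that of tissue for 18, and the ICC-MY level exceeded that of tissue for 16, each at an adjusted p under 0.05. In mean level, Ptgs2 had the order of the list between the ICC classes and between ICC-DMP and tissue. Between ICC-MY and tissue it had the opposite order. Klf6 and Myc, which are on the list, also averaged lower in ICC-MY (6.94 and 4.23) than in tissue (8.25 and 4.62), and neither passed there. The part of isolation in these values was not tested.

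**Figure D3:**
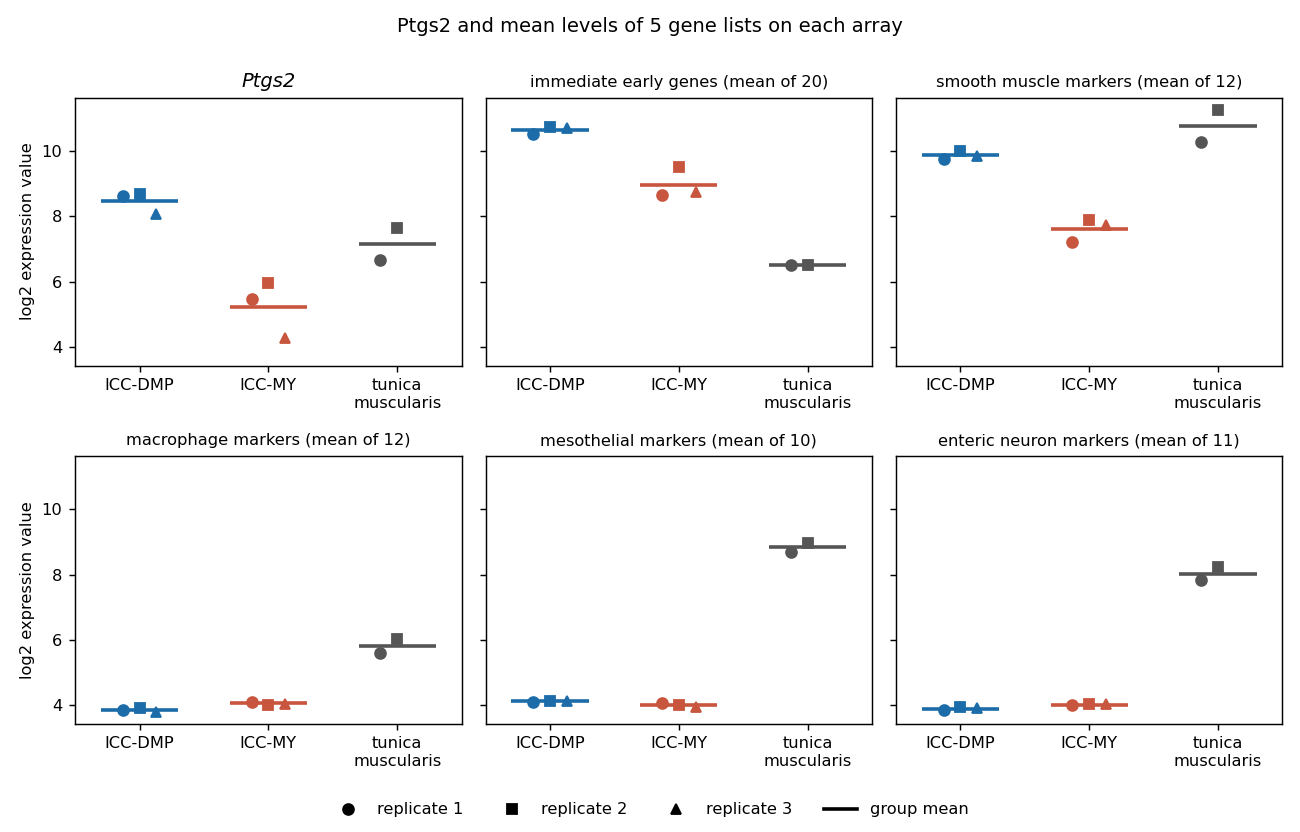
Log2 expression value of Ptgs2 and mean log2 value of 5 gene lists (vertical axis) on each array, by group; points are arrays, symbols replicate numbers and bars group means. The immediate early list is highest in ICC-DMP and lowest in tunica muscularis, the smooth muscle list is lowest in ICC-MY, and macrophage, mesothelial and enteric neuron lists are high in tunica muscularis.

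Ptges, the inducible enzyme that makes prostaglandin E2, was at 3.85, 3.96 and 4.33 in ICC-DMP, 3.97, 3.80 and 4.02 in ICC-MY, and 4.18 and 4.15 in tunica muscularis. Its differences of 0.11 between the ICC classes (95% interval -0.25 to 0.48), -0.12 for ICC-DMP minus tissue (-0.52 to 0.29) and -0.23 for ICC-MY minus tissue (-0.64 to 0.18) did not pass. Its other 2 probe sets lay between 3.40 and 4.30.

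Markers of other cells moved with several of these genes. Smooth muscle cells carry EP and IP receptors, as background. Among the 12 smooth muscle markers, 9 had a higher ICC-DMP level than ICC-MY level, 10 had a lower ICC-MY level than tissue level and 6 a lower ICC-DMP level, all at an adjusted p under 0.05. Myh11, which encodes smooth muscle myosin, averaged 10.97 ± 0.31 in ICC-DMP, 7.77 ± 0.39 in ICC-MY (SD, n = 3 each) and 11.77 ± 1.13 in tunica muscularis (n = 2). Its order is that of Ptger2 and Ptger4, but not that of every marker on the list. Mylk averaged 12.81 in ICC-DMP, 11.40 in ICC-MY and 12.73 in tissue, the order of Ptger3, Ptgir and Ptgs2. The ICC-DMP minus tissue differences of the 12 markers ran from -1.92 to 0.08, with a median of -0.81. Ptgir and Ptgs2 were above tissue on every ICC-DMP array. All 10 mesothelial markers and 9 of 12 macrophage markers were lower than in tissue in each ICC class. Csf1r, the growth factor receptor of macrophages, was at 5.57 to 5.85 in ICC-DMP, 6.04 to 6.83 in ICC-MY and 10.15 to 11.49 in tissue. Of 10 fibroblast and PDGFRA cell markers, 5 were below tissue in ICC-MY and 2 in ICC-DMP, and 1, Pdgfra, differed between the ICC classes. Pdgfra averaged 11.09 ± 0.29 in ICC-DMP, 9.00 ± 0.54 in ICC-MY (SD, n = 3 each) and 10.77 ± 1.09 in tissue (n = 2), the order of Ptger3, Ptgir and Ptgs2. It differed by 2.10 (limma, adjusted p = 0.0155) between the ICC classes. The ICC-DMP minus ICC-MY differences of the 10 markers ran from -1.67 for Cd34 to that value, with a median of 0.54. The mean of 8 epithelial markers was 3.82 to 3.94 in ICC-DMP and 3.74 to 4.01 in ICC-MY, against 5.12 and 7.05 on the tissue arrays. Of 10 endothelial markers, 4 were lower and 1 higher in ICC-DMP than in ICC-MY (limma, adjusted p under 0.05). Esam averaged 5.06 in ICC-DMP and 7.12 in ICC-MY, and Eng 6.58 and 8.68, the direction of Slco2a1 below. Plvap went the other way (9.14 and 6.18). Against tissue, 3 were lower and 1 higher in ICC-DMP, and 1 lower and 1 higher in ICC-MY. Between the ICC classes, no macrophage marker passed in limma at the adjusted threshold, and 1 of the 12 had an unadjusted p under 0.05. The part of such other cells in the prostaglandin gene differences was not tested.

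The genes whose pattern over the 8 arrays lay nearest to each gene that passed were found by the root mean square difference after each gene's own mean was taken off. For Ptger2, whose values had an SD of 1.78 over the arrays, these were Tgm2, Adcy7 and Cryab, at 0.18, 0.19 and 0.22. For Ptger3 (SD 1.62) they were Emp2, Dsg2 and Col4a4, at 0.22, 0.23 and 0.25. Those nearest to Ptger4 (SD 1.53) were Stxbp6, Rnase4 and Rgs4, at 0.19, 0.23 and 0.24, all with means highest in tunica muscularis and lowest in ICC-MY. Kcnmb4, Chst15 and Nkain1 were nearest to Ptgir (SD 1.09), at 0.13, 0.19 and 0.23, and had their highest means in ICC-DMP. For Ptgs2 (SD 1.60), Stox2, S100a4 and Pdgfa were the nearest but lay further off, at 0.30, 0.40 and 0.41. The median such difference over all genes was between 1.06 and 1.67 for these 5.

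Of 34 other genes of the arachidonate pathway, 30 were measured and 13 passed in at least 1 comparison, as did 19.2% of all genes. Of the 6 measured genes that carry prostaglandins across membranes or break them down, 4 were higher and 1 lower in ICC-MY than in tissue. Slco2a1, the prostaglandin uptake transporter, was 5.05-fold higher in ICC-MY than in tissue, and Hpgd, the enzyme that starts prostaglandin breakdown, was higher than tissue in both ICC classes. Between the ICC classes, 4 of the 30 were higher and 5 lower in ICC-DMP, against 5.36% and 3.3% of all genes. Against tissue, 3 were higher and 2 lower in ICC-DMP, where 3.72% and 7.32% of all genes were called. In ICC-MY, 6 were higher and 3 lower, where 4.05% and 9.78% of all genes were called. The counts of lower genes against tissue are near the shares over all genes.

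For arachidonate release, Pla2g4a, the cytosolic phospholipase A2 that feeds the cyclooxygenases, had 9.66, 10.05 and 9.79 in ICC-DMP, 7.28, 8.03 and 7.95 in ICC-MY, and 8.40 and 9.44 in tissue. The groups did not overlap. ICC-DMP exceeded ICC-MY 4.22-fold (2.08, SE 0.30, adjusted p = 0.00332). Its difference from tissue was 0.91 in ICC-DMP (adjusted p = 0.151) and -1.17 in ICC-MY (adjusted p = 0.0576), and both passed with the replicate block (0.87 and -1.21, adjusted p = 0.0194 and 0.00303). Unblocked, the first passed when tunica muscularis replicate 2 was left out (1.43, adjusted p = 0.0337) and the second without replicate 1 (-1.69, adjusted p = 0.0132). The secreted phospholipase gene Pla2g5 averaged 5.52 ± 0.19 in ICC-DMP and 4.48 ± 0.19 in ICC-MY (SD, n = 3 each), a difference of 1.05 (SE 0.19, adjusted p = 0.0116) that missed the threshold when ICC-DMP replicate 1 was left out (0.94, adjusted p = 0.0616). The other 5 measured phospholipase genes passed in no comparison.

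Among the terminal synthases, Ptges2, a second prostaglandin E synthase, had 5.37, 5.34 and 5.72 in ICC-DMP, 6.33, 7.24 and 7.44 in ICC-MY, and 5.80 and 5.62 in tissue. It was the reverse of Ptgs2, with every ICC-MY array above all others. The difference was -1.53 (SE 0.28, adjusted p = 0.011) for ICC-DMP minus ICC-MY, and leaving out ICC-DMP replicate 1 or 2 ended the call (0.0583 and 0.0575 as adjusted p). For ICC-MY minus tissue it was 1.30 (SE 0.31, adjusted p = 0.0273), lost without any 1 array other than ICC-DMP replicate 3 or ICC-MY replicate 1 (adjusted p = 0.0525 to 0.129). Ptgis, the prostacyclin synthase, averaged 7.94 ± 0.61 in ICC-MY (SD, n = 3) and 9.23 ± 0.35 in tissue (n = 2), a difference of -1.29 (SE 0.35, adjusted p = 0.0425) that was lost without any 1 array other than ICC-MY replicates 1 and 3 (adjusted p = 0.0596 to 0.217). In ICC-DMP it averaged 8.48 ± 0.26, and the difference from tissue of -0.75 (adjusted p = 0.265) passed with the replicate block (-0.96, adjusted p = 0.0128). The other 5 measured synthase genes passed in no comparison. The remaining prostanoid receptor genes, Ptgdr, Ptgdr2 and Tbxa2r, did not pass in any of them, and their differences lay between -0.32 and 0.48; by limma, 1 of the 3, Ptgdr2, had an unadjusted p under 0.05, for ICC-MY minus tissue.

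Transport and breakdown genes differed between the ICC classes in opposite directions. Slco2a1 read 6.41, 6.45 and 6.64 in ICC-DMP, 7.88, 8.39 and 8.71 in ICC-MY, and 5.75 and 6.24 in tissue. The ICC-MY arrays stood above all others. The difference was -1.83 (SE 0.23, adjusted p = 0.00158) for ICC-DMP minus ICC-MY and 2.34 (SE 0.26, adjusted p = 0.000553) for ICC-MY minus tissue. With all Slco2a1 probe sets averaged these became -0.88 and 1.08, and both passed. Slco3a1, a related transporter with prostaglandins among its known substrates, was 5.68-fold lower in ICC-DMP than in ICC-MY (-2.51, SE 0.29, adjusted p = 0.000868) and 8.85-fold higher in ICC-MY than in tissue (3.15, SE 0.32, adjusted p = 0.000344).

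Abcc4, a pump that can export prostaglandins, had the opposite order. It read 7.80, 7.57 and 7.72 in ICC-DMP, 5.94, 6.17 and 5.67 in ICC-MY, and 6.59 and 6.47 in tissue. The 3 groups did not overlap. ICC-DMP exceeded ICC-MY by 1.77 (SE 0.16, adjusted p = 0.000286) and tissue by 1.16 (SE 0.18, adjusted p = 0.00405), while ICC-MY minus tissue was -0.60 (adjusted p = 0.0652; -0.57 and 0.0415 with a random replicate block).

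Hpgd encodes 15-hydroxyprostaglandin dehydrogenase. It was at 10.53, 10.55 and 10.02 in ICC-DMP, 9.91, 11.02 and 10.25 in ICC-MY, and 7.92 and 9.05 in tissue. All 6 ICC arrays were above both tissue arrays. The differences from tissue were 1.88 (SE 0.41, adjusted p = 0.0208) in ICC-DMP and 1.91 (SE 0.41, adjusted p = 0.0159) in ICC-MY, and both were lost without tunica muscularis replicate 1 (1.32 and 1.35, adjusted p = 0.12 and 0.0901). Leaving out ICC-DMP replicate 1 or 2 also ended the ICC-DMP call (0.0822 and 0.08 as adjusted p). A second Hpgd probe set gave 1.43 and 1.35 in a fit of every probe set, both of which passed. Between the ICC classes Hpgd differed by -0.03 (95% interval -0.87 to 0.81).

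The prostaglandin reductases went in different directions in ICC-MY. Ptgr1 was lower than in tissue, by 2.42-fold in ICC-DMP (-1.28, SE 0.30, adjusted p = 0.0295) and 3.81-fold in ICC-MY (-1.93, SE 0.30, adjusted p = 0.00325). The ICC-DMP call for Ptgr1 was lost without any 1 of the ICC-DMP arrays, without ICC-MY replicate 3 and without tunica muscularis replicate 2 (adjusted p = 0.0504 to 0.156). Ptgr2 was higher in ICC-MY than in tissue with a 2.83-fold difference (SE of the log2 difference 0.30, adjusted p = 0.0122), and missed the threshold with tunica muscularis replicate 1 left out (1.16, adjusted p = 0.0771). It was lower in ICC-DMP than in ICC-MY by 1.13 (SE 0.27, adjusted p = 0.0375), and that call was lost without any 1 of the ICC-DMP arrays or ICC-MY replicates 2 and 3 (adjusted p = 0.0857 to 0.155).

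In the leukotriene branch, which starts from the same arachidonic acid, 3 of 7 measured genes passed in at least 1 comparison, as did 19.2% of all genes. In each of the 3 comparisons 1 was higher and 1 lower, where 3.3% to 9.78% of all genes were called in a given direction. Cysltr2, a receptor for cysteinyl leukotrienes, had 6.29, 6.17 and 6.41 in ICC-DMP, 3.98, 3.68 and 4.22 in ICC-MY, and 4.42 and 4.48 in tissue. Its ICC-DMP arrays stood apart from all others, as they did for Ptgir. It was 5.02-fold higher in ICC-DMP than in ICC-MY (2.33, SE 0.16, adjusted p = 9.05e-05) and 3.58-fold higher than in tissue (1.84, SE 0.18, adjusted p = 0.000382). ICC-MY minus tissue was -0.49 (adjusted p = 0.139), which passed with the replicate block (-0.58, adjusted p = 0.0445). Alox5ap, the activator of 5-lipoxygenase that is common in macrophages, was lower than in tissue by 1.42 (SE 0.24, adjusted p = 0.00587) in ICC-DMP and by 1.84 (SE 0.24, adjusted p = 0.00116) in ICC-MY, beside the lower macrophage markers given above. Ltb4r1, a leukotriene B4 receptor, was at 3.59 to 3.81 in ICC-DMP, 4.12 to 4.73 in ICC-MY and 3.47 to 3.51 in tissue. Its ICC-DMP and tissue values lay below the median of all values (4.23), and whether they exceed background was not measured. The Ltb4r1 difference was 0.98 (SE 0.20, adjusted p = 0.0122) for ICC-MY minus tissue and -0.77 (SE 0.18, adjusted p = 0.0304) for ICC-DMP minus ICC-MY. The first was lost without either tissue array (adjusted p = 0.0552 and 0.0528) and the second without any 1 of the ICC-DMP arrays or ICC-MY replicates 2 and 3 (adjusted p = 0.0822 to 0.133).

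**Figure D4:**
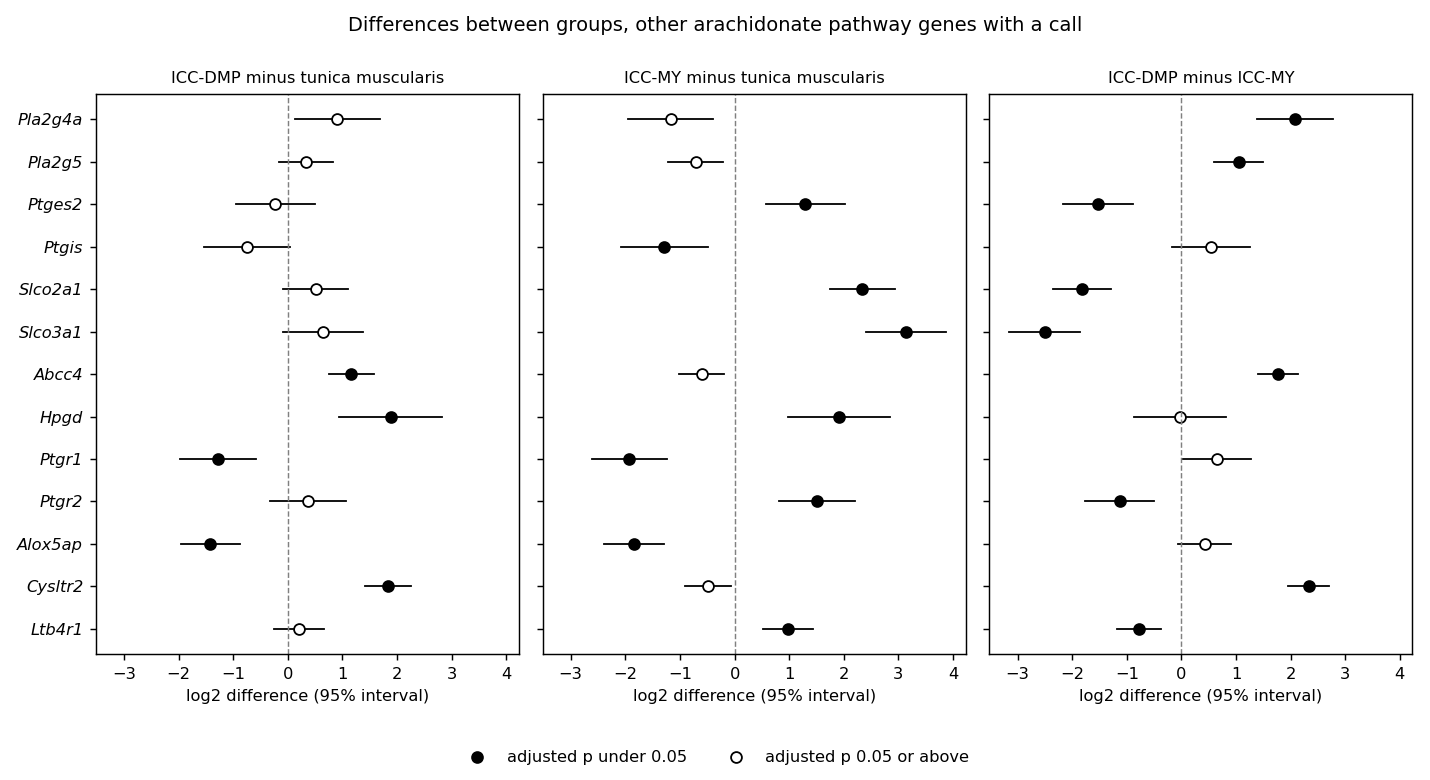
Log2 differences (horizontal axis) of the 13 other arachidonate pathway genes that passed in at least 1 comparison, with 95% intervals; filled points have an adjusted p under 0.05. Slco2a1 and Slco3a1 lie to the right of 0 for ICC-MY minus tunica muscularis and to the left for ICC-DMP minus ICC-MY, and Pla2g4a, Abcc4 and Cysltr2 lie to the right for ICC-DMP minus ICC-MY.

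**Figure D5:**
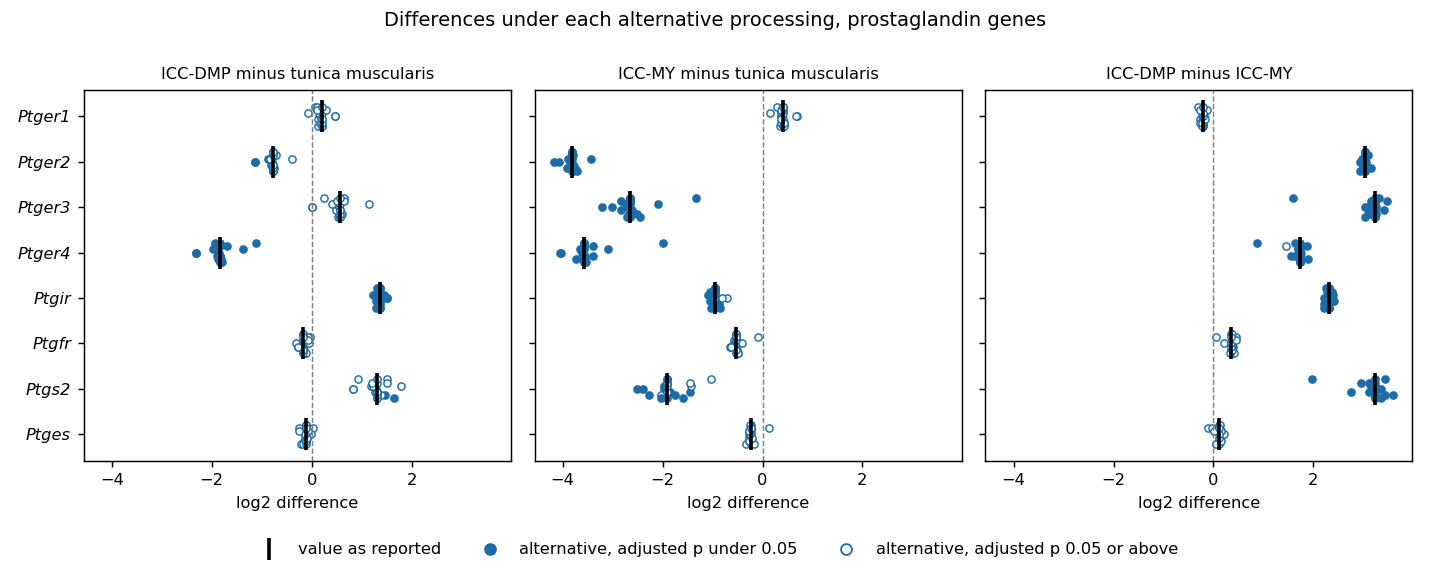
Log2 differences (horizontal axis) of the 8 measured prostaglandin genes as reported (black bar) and under 21 alternatives (points, filled where the adjusted p was under 0.05). The 5 genes called between the ICC classes stay to the right of 0 under every alternative shown in that panel, with Ptger4 unfilled in 1.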

How the data were processed

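RNA from 8 samples was hybridised to single-channel oligonucleotide arrays. The deposited table holds a log2 expression value for each probe set on each array, and the submitters' processing notes name RMA and limma without versions or roles. Array medians lay between 4.18 and 4.31. Of 45101 probe sets, 64 controls were left out, and 34945 named 1 gene in the platform annotation, 932 several. For each of 18193 genes, the probe set whose mean over the 8 arrays was highest was used. All arrays entered 1 fit of 3 groups (R 4.3.3, limma 3.58.1, 2-sided moderated test). Benjamini-Hochberg adjustment ran over 18193 genes, with calls at an adjusted p under 0.05. The fit was also run on simulated data in which arrays varied independently, so that run does not test dependence between arrays. Errors are SD over arrays for means and standard errors (SE) for differences. P-values measure only the spread between these samples, whose animals are not described, and the number of arrays limits the precision.

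Arrays of the same replicate number deviated together in all 7 pairs across groups. The correlation of deviations from the group means was 0.16 to 0.61 over genes. The numbers in the titles were therefore treated as a possible pairing. The check is limited, because the deviations of the 2 tissue arrays are opposite by construction. The 2 narrow-range arrays, both replicate 1, correlated at 0.58, and a shared array trait cannot be told apart from pairing. The reported fit has no replicate block and treats the arrays as independent. Values with the number as a fixed block stand beside the named calls that it changes, and the random block is an alternative.

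The members and gene lists were chosen with earlier results of these data known. The 9 members were named, with every other prostanoid or leukotriene gene that passed, and the 3 genes most like each member that passed. The alternatives were other normalizations, filters, probe set rules, spread estimates and left-out arrays.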

Additional observations from a re-analysis of the deposited data

Results flagged for a closer look

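For 14 genes, the difference from tunica muscularis was not the same in the 2 ICC classes, tested as the ICC-DMP minus ICC-MY difference in limma at an adjusted p under 0.05. Among the prostaglandin genes this difference was 3.04 for Ptger2, 3.23 for Ptger3, 1.73 for Ptger4, 2.31 for Ptgir and 3.24 for Ptgs2. Ptger3, Ptgir and Ptgs2 had mean levels above tissue in ICC-DMP and below it in ICC-MY. Of these, only Ptgir passed in limma for ICC-DMP minus tissue (adjusted p = 0.416 for Ptger3 and 0.148 for Ptgs2). Among the other pathway genes, Pla2g4a (2.08), Pla2g5 (1.05), Abcc4 (1.77) and Cysltr2 (2.33) were higher in ICC-DMP. Ptges2 (-1.53), Slco2a1 (-1.83), Slco3a1 (-2.51), Ptgr2 (-1.13) and Ltb4r1 (-0.77) were lower in ICC-DMP.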

How the results depend on the processing

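Of the 24 differences of the prostaglandin genes, 12 passed, and 9 of these passed under all 21 alternatives. The exceptions were Ptgs2 and Ptgir for ICC-MY minus tunica muscularis and Ptger4 for ICC-DMP minus ICC-MY; no called difference changed sign. Of 39 differences of the other named pathway genes, 23 passed, and 11 of these were lost under some alternative. Among differences that had not passed, averaging probe sets turned the sign of Ptges (0.028 for ICC-DMP minus tissue, 0.14 for the ICC-MY difference from tissue and -0.11 between the ICC classes), of Ptgr2 (-0.13 for ICC-DMP minus tissue) and of Hpgd (0.023 between the ICC classes). Leaving out 1 array at a time gave -0.064 to 0.46 for Ptger1 in ICC-DMP minus tissue, and -0.026 to 0.21 for Ptges and -0.27 to 0.28 for Hpgd in ICC-DMP minus ICC-MY. Without the 2 arrays of highest actin 3' minus 5' difference, an alternative chosen after seeing the data, Hpgd was at 0.076 between the classes. The prostaglandin genes that passed numbered 4 for ICC-DMP minus tissue with a random replicate block and 3 for ICC-MY minus tissue with those 2 groups fitted alone. Over all genes, 2009 passed for ICC-DMP minus tissue, against 3129 with quantile normalization, 3977 when every probe set was fitted, 1216 without the high-actin-difference arrays and 1264 to 2480 without 1 array, with the fewest without ICC-DMP replicates 1 (1264) and 2 (1296). For ICC-MY minus tissue, 2516 passed, against 3911 with quantile normalization, 4452 with every probe set and 1520 with the 2 groups alone. For ICC-DMP minus ICC-MY, 1577 passed, against 2617 with the replicate block, 2398 with a random block, 2557 with quantile normalization, 2646 with array weights, 2630 without the narrow-range arrays, 804 without the high-actin-difference arrays, 2638 with every probe set and 991 to 1840 without 1 array, with the fewest again without ICC-DMP replicates 1 (991) and 2 (996). The split of higher and lower calls in that comparison was 976 and 601, but 1282 and 1275 with quantile normalization, and the majority turned when ICC-MY replicate 1 was left out, alone (872 and 968) or with tunica muscularis replicate 1 (1228 and 1402). The cause of these shifts was not tested. Beside the changes given with each gene, the fixed replicate block changed no call of a named prostaglandin or pathway gene, and the random block added Pla2g5 for ICC-MY minus tissue (-0.70, adjusted p = 0.0477). Ptgfr and Ptges have no value after removal of dim probe sets, and with 2 tissue arrays, leaving 1 out assumes that the other varies like the ICC groups.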
